A study of Homo sapiens and Mus musculus with 66 samples.

Results

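The genes described here are 10 regulators of entry into the cell cycle, taken as a fixed list by name from the 20162 protein-coding genes of the hg19 annotation. They comprised the D-type cyclins CCND1, CCND2 and CCND3, the E-type cyclins CCNE1 and CCNE2, the growth transcription factor MYC, the immediate early factors FOS, JUN and EGR1, and the cyclin-dependent kinase (CDK) inhibitor CDKN1A. The rule for the list uses names and no threshold on a measured value. For each gene body, the share inside and the distance to the nearest region were taken from lists of chromatin at the nuclear lamina (NL), together with the distance to the end of the chromosome.

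The maps came from lamin-B1 cTSA-seq, in which an antibody against lamin-B1 directs a peroxidase that deposits biotin on chromatin at or close to the NL, and the biotinylated fragments are pulled down with streptavidin (StrePD) and compared with input. HCT116, a human colorectal carcinoma line, was sorted by DNA content at 5 stages. Cells of 90m G1 and 180m G1 were held in nocodazole for 16 h according to the labels, whereas the study's methods give a longer block, and were harvested 90 min and 180 min after release. Cells of G1, S and G2 came from asynchronous cultures without a block, so the release lists differ from the others in the drug as well as in the time. According to the study's methods, the release cells were also collected by mitotic shake-off and put onto dishes coated with poly-lysine, so their handling differs too. Unsorted HCT116 cells were mapped in bulk and at 1000000, 200000 and 50000 cells, and K562, a human leukemia line, was mapped in bulk by cTSA-seq. A list of K562 cells from published TSA-seq data, made in another laboratory with another lamin-B antibody, was also used. Each stage and each bulk population has 2 input and 2 StrePD libraries, except that the dilution at 1000000 cells has 1 StrePD library and each dilution has 1 input library. All of these are established lines, without an engineered allele in the labels.

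Every list is a single set of 100 kb windows that a Hidden Markov Model (HMM) placed in its strongest state, merged over replicates, and it holds neither a signal nor a read count. The depth is therefore unknown, no spread between replicates can be given, and no test was made. As a rough measure of variation between maps, the 4 lists of asynchronous unsorted HCT116 cells (bulk, 1000000, 200000 and 50000 cells) are given side by side. The lower cell numbers were made by diluting harvested cells. These lists thus differ in cell number and are not repeats of 1 experiment. A difference of 1 window, 100 kb, is the smallest step that these lists can show. The lists cover between 17.0% and 26.9% of the genome in HCT116 and 39.6% in K562 by cTSA-seq. A further K562 list, the nonLAD list, holds chromatin in the depleted state in both cTSA-seq and TSA-seq and covers 20.8% of the genome.

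D-type cyclins are induced by growth signals and activate CDK4 and CDK6, which begin to inactivate the retinoblastoma protein in G1. E-type cyclins activate CDK2 near the boundary of G1 and S, and CDKN1A (p21) inhibits these kinases. FOS, JUN and EGR1 are transcribed within minutes of a mitogen signal from promoters that are already accessible, and MYC follows as a broad activator of growth genes. Lamina-associated domains (LADs) are long stretches of chromatin that lie at the nuclear periphery, are mostly poor in genes and are mostly transcribed at a low level, and they are rebuilt after each mitosis.

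RefSeq promoters on GRCh38.p14 were found for 6 of the 10 genes, JUN, EGR1, CDKN1A, CCND3, FOS and CCNE1, and not for CCND1, CCND2, CCNE2 and MYC. The 250 bases before the start of EGR1, FOS and CCNE1 are shown. They set immediate early factors, each with a short known sequence element, beside a cyclin with a very GC-rich start. Capitals mark a CArG box, the binding sequence of serum response factor, in EGR1, and a TATA box in FOS. The EGR1 sequence lies at chr5:138465229-138465478 on the plus strand, that of FOS at chr14:75278578-75278827 on the plus strand and that of CCNE1 at chr19:29811741-29811990 on the plus strand.
EGR1: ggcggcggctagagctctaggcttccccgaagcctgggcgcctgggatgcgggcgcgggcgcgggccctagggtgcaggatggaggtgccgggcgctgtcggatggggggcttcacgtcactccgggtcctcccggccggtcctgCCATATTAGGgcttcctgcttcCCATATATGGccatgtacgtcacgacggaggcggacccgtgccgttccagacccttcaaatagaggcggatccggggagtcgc
FOS: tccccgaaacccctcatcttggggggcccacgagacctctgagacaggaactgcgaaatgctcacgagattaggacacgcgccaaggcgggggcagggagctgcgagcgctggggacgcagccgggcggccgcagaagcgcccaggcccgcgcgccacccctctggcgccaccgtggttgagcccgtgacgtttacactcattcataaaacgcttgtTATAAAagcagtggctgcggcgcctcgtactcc
CCNE1: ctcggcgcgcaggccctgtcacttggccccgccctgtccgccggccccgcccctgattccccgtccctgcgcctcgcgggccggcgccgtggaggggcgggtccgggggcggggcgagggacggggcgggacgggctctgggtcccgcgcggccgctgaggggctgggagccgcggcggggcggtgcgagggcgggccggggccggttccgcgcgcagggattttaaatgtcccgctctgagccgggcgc

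The 2 CArG boxes of EGR1 begin 105 and 83 bases before the start site, and a CArG box on either strand was found in the same window of 1.16% of 35116 RefSeq promoters. The TATA box of FOS, TATAAA, begins 33 bases before the start site, and these letters were found in 10.7% of promoters. The AP-1 letters TGACTCA (4.2% of promoters), the cyclic AMP response element TGACGTCA (1.65%) and the E2F letters TTTCCCGC, TTTCGCGC, TTTGCCGC or TTTGGCGC (2.79%) were searched on both strands and matched in none of the 6 genes. The GC content of the window was 81.2% for CCNE1, 68.4% for EGR1 and 64.8% for FOS, against a median of 58.0% over all promoters. The cTSA-seq windows are far wider than a promoter, so these sequences describe the genes and not the contacts measured here.

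MYC was the only one of the 10 genes inside any of the lamin-B1 lists, and it was inside only at 90m G1. All of its body, chr8:128747680-128755197 on the plus strand, lay in a 90m G1 region of 0.7 Mb at chr8:128500001-129200000, at 248 kb from the lower edge and 445 kb from the upper edge. The other 9 genes had no base in that list, so 1 of 10 was inside, where 17.7% of all protein-coding genes were. In 180m G1, G1, S, G2 and bulk HCT116 cells none of the 10 was inside, where the background was 6.15%, 5.76%, 6.48%, 5.38% and 12.4% of protein-coding genes, respectively. With 10 genes, shares of this size lead to few or no genes inside, and the counts are not a result about the list. Of the 3578 protein-coding genes inside the 90m G1 list, 80.7% were in none of the 4 later stage lists, as MYC was.

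**Figure D1:**
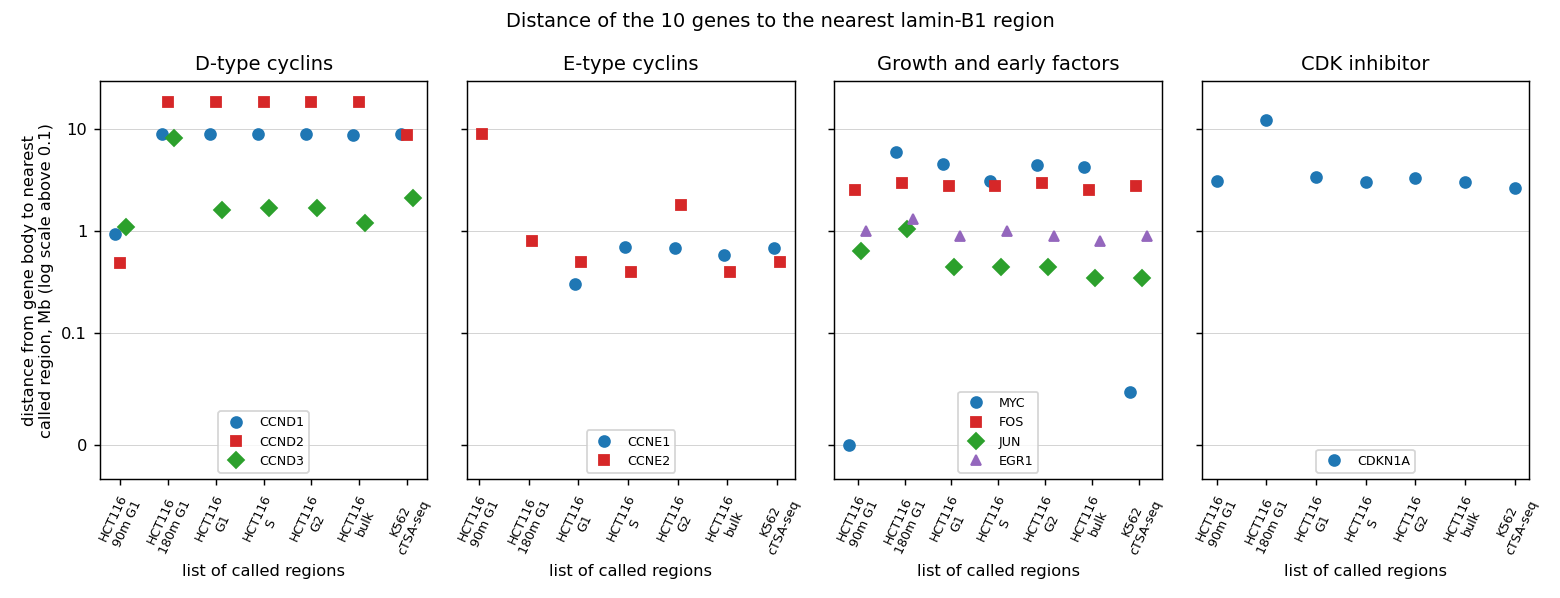
Distance in Mb from the body of each gene to the nearest called region (vertical axis, log scale above 0.1 Mb) in 7 lists (horizontal axis), with 1 point per gene and list and no error bar because no list holds separate replicates. MYC sits at 0 in 90m G1, CCND1 and CCND2 are closer in 90m G1 than in any other list, and CCNE1 has no point in 90m G1 and 180m G1 because chromosome 19 carries no region there.

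The distance of MYC differed between 90m G1 and every later stage. It was 0 Mb in 90m G1, 5.94 Mb in 180m G1, 4.54 Mb in G1, 3.14 Mb in S, 4.44 Mb in G2 and 4.24 Mb in bulk cells. The 4 asynchronous lists ranged from 4.24 to 6.24 Mb, so the value at 90m G1 stood apart from them and that at 180m G1 did not. The value in S, 3.14 Mb, was also below this range. In the 90m G1 list, 34.9% of the 1 Mb on either side of MYC was called, and in 180m G1, G1, S, G2 and bulk cells 0% was. MYC was the only protein-coding gene in its region, with POU5F1B as the nearest protein-coding gene below and GSDMC above.

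K562 cells placed a border beside MYC. A cTSA-seq region of 1.3 Mb at chr8:127400001-128700000, which holds LRATD2 and POU5F1B, ended 47.7 kb before the start of MYC. The K562 nonLAD list began at the same window border, and its region of 0.5 Mb, chr8:128700001-129200000, held MYC in full. The upper end of this nonLAD region is the upper end of the 90m G1 region of HCT116 cells, so that the same 0.5 Mb around MYC was called at the NL in 90m G1 HCT116 cells and depleted in K562 cells. The K562 cells were unsorted bulk cells, so this contrast sets unlike stages side by side. In bulk HCT116 cells MYC was not inside a region either, at 4.24 Mb. A difference between the lines was not tested, because no list of K562 cells after mitosis was used here.

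CCND1 and CCND2 each lay beside a region that was called at 90m G1 and not at later stages. CCND1 (chr11:69455924-69469242, plus strand) was 0.931 Mb from a region of 0.5 Mb in 90m G1, chr11:70400001-70900000, in which SHANK2 is the only protein-coding gene. Its distance was 8.93 Mb in 180m G1, 9.03 Mb in G1, 8.93 Mb in S, 8.93 Mb in G2, 8.83 Mb in bulk HCT116 cells and 8.93 Mb in K562 cells. All of these later values lead to the same stretch, which starts at 78300001 to 78500001 on chromosome 11 and holds TENM4, so the position of this border differed by at most 2 windows between both lines and all these stages. The 4 asynchronous lists placed CCND1 8.83 to 9.33 Mb away, and 90m G1 was outside that range.

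CCND2 (chr12:4378937-4414519, plus strand) lay 4.38 Mb from the start of chromosome 12, closest to a chromosome end of all 10 genes. In 90m G1 a region of 0.8 Mb, chr12:3100001-3900000, lay 0.479 Mb away on the side of the end and held TEAD4, TSPAN9, PRMT8 and CRACR2A. In 180m G1 the distance was 18.5 Mb, in G1, S and G2 it was 18.6 Mb, and in bulk cells it was 18.7 Mb, all toward the centre of the chromosome and all to a region with SOX5. Between CCND2 and the end of the chromosome, 20.6% of the bases were called in 90m G1 and 0% in 180m G1, G1, S, G2, bulk HCT116 and K562 cells. The 200000-cell list was the exception among the asynchronous lists, at 12.5 Mb, because it held an additional region of 0.3 Mb. K562 cells had their nearest region 8.89 Mb away, at chr12:13300001-14300000 with EMP1 and GRIN2B.

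CCND3, on the minus strand at chr6:41902672-42018095 and the longest of the 10 genes at 115.0 kb, had a region of 1.0 Mb below it at 90m G1, chr6:39800001-40800000, that holds DAAM2, MOCS1 and LRFN2. Its distance was 1.1 Mb in 90m G1, 8.18 Mb in 180m G1, 1.6 Mb in G1, 1.7 Mb in S, 1.7 Mb in G2, 1.2 Mb in bulk HCT116 cells and 2.1 Mb in K562 cells. Unlike CCND1 and CCND2, it therefore had a region 1.1 to 2.1 Mb away at 90m G1, at the asynchronous stages and in both lines, and of these 7 lists only 180m G1 had none so close. The asynchronous lists ranged from 1.2 to 7.98 Mb, with 1.6 Mb for 50000 cells, 2.3 Mb for 1000000 cells and 7.98 Mb for 200000 cells, so that the 200000-cell list, like 180m G1, had no call close below the gene. The value at 90m G1 was 1 window below that range and the value at 180m G1 2 windows above it.

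Of the 9 genes with a 90m G1 distance, CCND1, CCND2, CCND3 and MYC were closer to a region at 90m G1 than in all 4 asynchronous HCT116 lists, where 26.5% of protein-coding genes with a distance were, and CCNE2 and JUN were farther, where 53.1% were. For CCND3 this is a difference of 1 window. At 180m G1 no gene was closer than in all 4 asynchronous lists, where 9.08% of protein-coding genes were, and CCND3, CCNE2 and JUN were farther, where 36.3% were. Among the 5 stages alone, 5 of the 9 genes (CCND1, CCND2, CCND3, MYC and FOS) were nearest to a region at 90m G1, where 34.5% of 18003 protein-coding genes were.

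Neither E-type cyclin had a region close by at 90m G1. CCNE1 (chr19:30302898-30315219, plus strand) is on chromosome 19, which carries no called region in the 90m G1 and 180m G1 lists, so no distance exists there. In the later lists it was flanked on both sides at short range. Its distance was 0.303 Mb in G1, 0.703 Mb in S, 0.685 Mb in G2, 0.585 Mb in bulk HCT116 cells and 0.685 Mb in K562 cells. The 4 asynchronous lists lay between 0.585 and 0.685 Mb, with G1 below that range. The value in S was above it by less than 1 window. On the lower side of CCNE1, S and the 1000000-cell list both gave 0.703 Mb. The uncalled stretch with CCNE1 was 0.8 Mb long in G1, 1.5 Mb in S and G2, 1.2 Mb in bulk HCT116 cells and 2.2 Mb in K562 cells. In G1, 60.2% of its surroundings within 1 Mb was called, the highest share for any of the 10 genes in any HCT116 list. The K562 nonLAD list placed CCNE1 in a region of 0.5 Mb with POP4, PLEKHF1, C19orf12 and URI1, so the gene sat in a short island of depleted chromatin between called regions.

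CCNE2 (chr8:95891998-95908906, minus strand) was the only one of the 9 genes with all 5 distances that was farther from a region at 90m G1 than at every later stage, which held for 51.3% of 18003 protein-coding genes. Its distance was 8.99 Mb in 90m G1, 0.791 Mb in 180m G1, 0.491 Mb in G1, 0.391 Mb in S, 1.79 Mb in G2, 0.391 Mb in bulk HCT116 cells and 0.491 Mb in K562 cells. The 4 asynchronous lists spanned 0.391 to 0.491 Mb, that is 1 window. The value at 90m G1 was outside this range, and so, by 3 windows, was that at 180m G1. The value in G2, 1.79 Mb, was also outside it, and farther than that at 180m G1. The uncalled stretch around CCNE2 was 29.3 Mb long in 90m G1, 2.2 Mb in 180m G1, 2.6 Mb in G1 and 1.8 Mb in S. In K562 cells it was in a nonLAD region of 0.8 Mb with 9 protein-coding genes, among them INTS8 and TP53INP1. CCNE2 and MYC are on the same chromosome and went opposite ways at 90m G1, with CCNE2 far from and MYC inside a region.

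**Figure D2:**
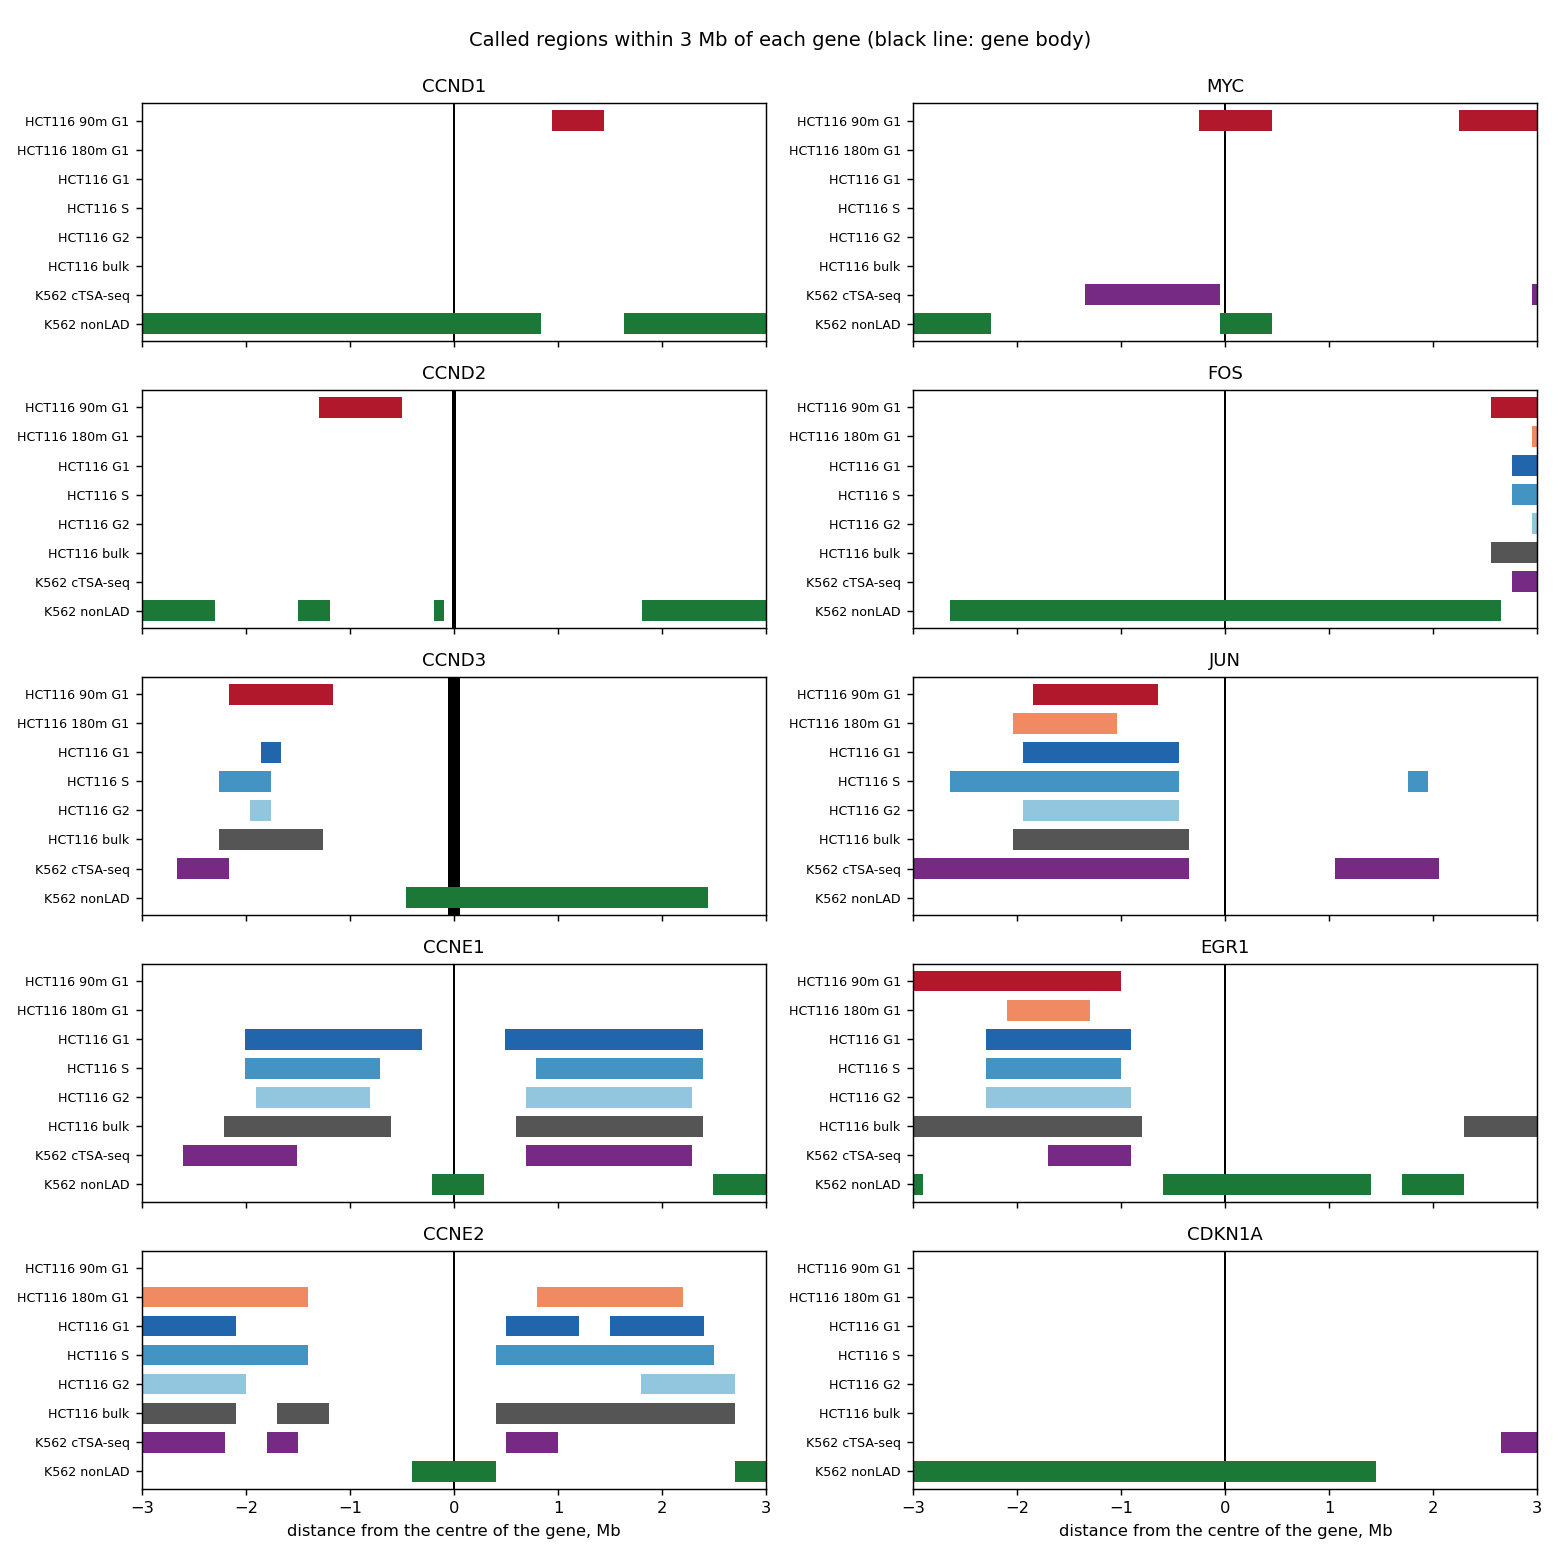
Called regions (coloured bars) within 3 Mb of each gene, with the distance from the centre of the gene in Mb on the horizontal axis and 1 row for each of 8 lists; the black line or band is the gene body. CCNE1 and CCNE2 lie in short gaps between regions of the later lists, MYC lies inside a region in 90m G1 alone among the HCT116 lists, and the K562 nonLAD bars cover 8 of the 10 genes.

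FOS and EGR1 stayed within the range of the asynchronous lists at both release times, and JUN did not. FOS (chr14:75745529-75748933, plus strand), which forms the AP-1 factor with JUN, was 2.55 Mb away in 90m G1, 2.95 Mb in 180m G1, 2.75 Mb in G1, 2.75 Mb in S, 2.95 Mb in G2, 2.55 Mb in bulk HCT116 cells and 2.75 Mb in K562 cells. These distances all lead to the stretch with NRXN3 above the gene, and they all lie within the 2.55 to 2.95 Mb of the 4 asynchronous lists. In K562 cells all of the 1 Mb on either side of FOS was nonLAD chromatin.

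EGR1, a zinc finger factor at chr5:137801168-137804992 on the plus strand, behaved alike. Its distance was 1.0 Mb in 90m G1, 1.3 Mb in 180m G1, 0.901 Mb in G1, 1.0 Mb in S, 0.901 Mb in G2, 0.801 Mb in bulk HCT116 cells and 0.901 Mb in K562 cells, within the 0.801 to 1.4 Mb of the asynchronous lists. The region next to it, which holds SPOCK1, reached 2.2 Mb in 90m G1 and in bulk cells and 0.8 Mb in 180m G1 and in K562 cells. The part of chromosome 5 beyond EGR1 did differ, since 73.8% of the 43.1 Mb between EGR1 and the chromosome end was called at 90m G1 and 35.7% to 47.3% in the other HCT116 lists.

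JUN, on the minus strand at chr1:59242517-59249720, lay close to a region with DAB1 in every lamin-B1 cTSA-seq list. Its distance was 0.643 Mb in 90m G1, 1.04 Mb in 180m G1, 0.443 Mb in G1, S and G2, 0.343 Mb in bulk HCT116 cells and 0.343 Mb in K562 cells, and the asynchronous lists spanned 0.343 to 0.443 Mb. Both release lists were outside this range, by 2 windows at 90m G1 and by 6 at 180m G1. On the other side of JUN the next region was 102.0 Mb away in 90m G1, 11.8 Mb in 180m G1, 12.4 Mb in G1, 1.75 Mb in S, 11.9 Mb in G2 and 11.8 Mb in bulk HCT116 cells, so S alone had a call close by on that side among these lists. JUN was the gene farthest from the K562 nonLAD list, at 3.74 Mb, and none of its surroundings within 1 Mb was nonLAD chromatin.

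CDKN1A (chr6:36644237-36655114, plus strand) shares chromosome 6 with CCND3, and in 90m G1, G1, S, G2, bulk HCT116 and K562 cells the same region is nearest to both, so these values of the pair are not independent. In 180m G1 their nearest regions differ. Its distance was 3.14 Mb in 90m G1, 12.4 Mb in 180m G1, 3.44 Mb in G1, 3.04 Mb in S, 3.34 Mb in G2, 3.04 Mb in bulk HCT116 cells and 2.64 Mb in K562 cells. The shared region, above CDKN1A and below CCND3, was 0.2 Mb long in G1 and G2, 0.5 Mb in S and 1.0 Mb in 90m G1 and bulk cells, and its place differed, since the calls of G1 and G2 lie between MOCS1 and LRFN2 and that of K562 cells holds KIF6 and DAAM2. With 1000000 cells the nearest call to both genes was chr6:39400001-39600000, and with 200000 cells, as in 180m G1, it was a different and farther region for each. The asynchronous lists for CDKN1A ranged from 2.74 to 12.4 Mb. The long distance at 180m G1 was thus within the range of the asynchronous lists, but only through the 200000-cell list. All of the surroundings of CDKN1A within 1 Mb was nonLAD chromatin in K562 cells.

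The uncalled stretches around CCND3, CCND2 and JUN were very long at 90m G1. The 90m G1 list holds 204 regions, against 377 to 471 in the other stage lists. The stretches around other genes were not measured, so their length cannot be called particular to these genes. The stretch was 108.0 Mb long for CCND3, 104.0 Mb for CCND2 and 103.0 Mb for JUN, whereas for CCND3 it was 26.0 Mb in 180m G1 and 9.9 Mb in G1 and for JUN 12.8 Mb in both. Between JUN and the start of chromosome 1, 50.1% of 59.2 Mb was called at 90m G1 against 9.79% to 14.9% in the later stages. Between MYC and the end of chromosome 8, 83.5% of 17.6 Mb was called against 32.4% to 40.9%. In bulk HCT116 cells these shares were 25.0% for JUN and 55.7% for MYC. CCNE1 went the other way, with 0% at 90m G1 and 180m G1 and 7.64% to 16.7% in G1, S and G2. For CCND1 and CCNE2 the shares between the gene and the end were 34.6% and 39.2% at 90m G1, inside the ranges of 30.5% to 43.5% and 33.3% to 41.6% of the later stages. At 90m G1 the shares were 45.6% for FOS, 21.2% for CCND3 and 21.6% for CDKN1A. The later stages gave 34.8% to 36.1%, 6.2% to 10.0% and 6.55% to 11.5%, respectively. In bulk cells FOS had 46.8%. The study reports that signal was in general raised toward chromosome ends soon after mitosis, on smaller chromosomes mainly on the long arm. No share was taken over all genes, so these shares, with those of CCND2 and EGR1, cannot be called particular to these genes. They were chosen after the distances had been seen.

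Only CCND2 and MYC lay in the distal 20% of a chromosome at either end, at 3.27% and 12.0% of the chromosome length from it. This was 2 of 10 genes, while 44.5% of all protein-coding genes lay there. The other genes were 21.4% (CDKN1A) to 48.7% (CCNE1) of the chromosome length away from an end, and the median over the 10 genes was 24.2% against 22.8% over all protein-coding genes. MYC and CCND2 were also the genes with the smallest distances at 90m G1, followed by JUN at 23.8% of the chromosome length from an end and 0.643 Mb from a region.

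As a group, the median distance of the 9 genes with a value was 1.0 Mb in 90m G1 against 5.11 Mb for the 18453 protein-coding genes with a value, and 5.94 Mb against 2.71 Mb for 18232 genes in 180m G1. In the other HCT116 lists CCNE1 has a value too, and the medians are those of all 10 genes. In G1 this median was 2.18 Mb against 2.46 Mb and in S 2.23 Mb against 2.31 Mb. In G2 it was 2.37 Mb against 2.61 Mb and in bulk HCT116 cells 1.88 Mb against 1.85 Mb. Without CCNE1 the middle gene of the 9 was FOS, at 2.75 Mb in G1 and S, 2.95 Mb in G2 and 2.55 Mb in bulk cells. Those values are above the background. In G1, S and G2 the direction thus depends on whether CCNE1 is counted, whereas in bulk cells the median is above the background either way. The spread of the median of all 10 genes over the 4 asynchronous lists was 1.88 to 3.6 Mb (SD 0.743 Mb). The medians of G1, S and G2 fell within that range, so they cannot be told apart by these lists. Bulk is among the 4 lists and sets the lower end of the range, so it could not fall outside. The range comes from unsorted cells at different cell numbers and is not a replicate spread of the stages. The medians of 90m G1 and 180m G1, over 9 genes, were outside that range, in opposite directions. Without CCNE1 the range was 2.55 to 4.44 Mb, and both were outside it too. The 180m G1 value is that of MYC, the middle gene of the 9. CCNE1, without a distance in both release lists, does not enter their medians.

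**Figure D3:**
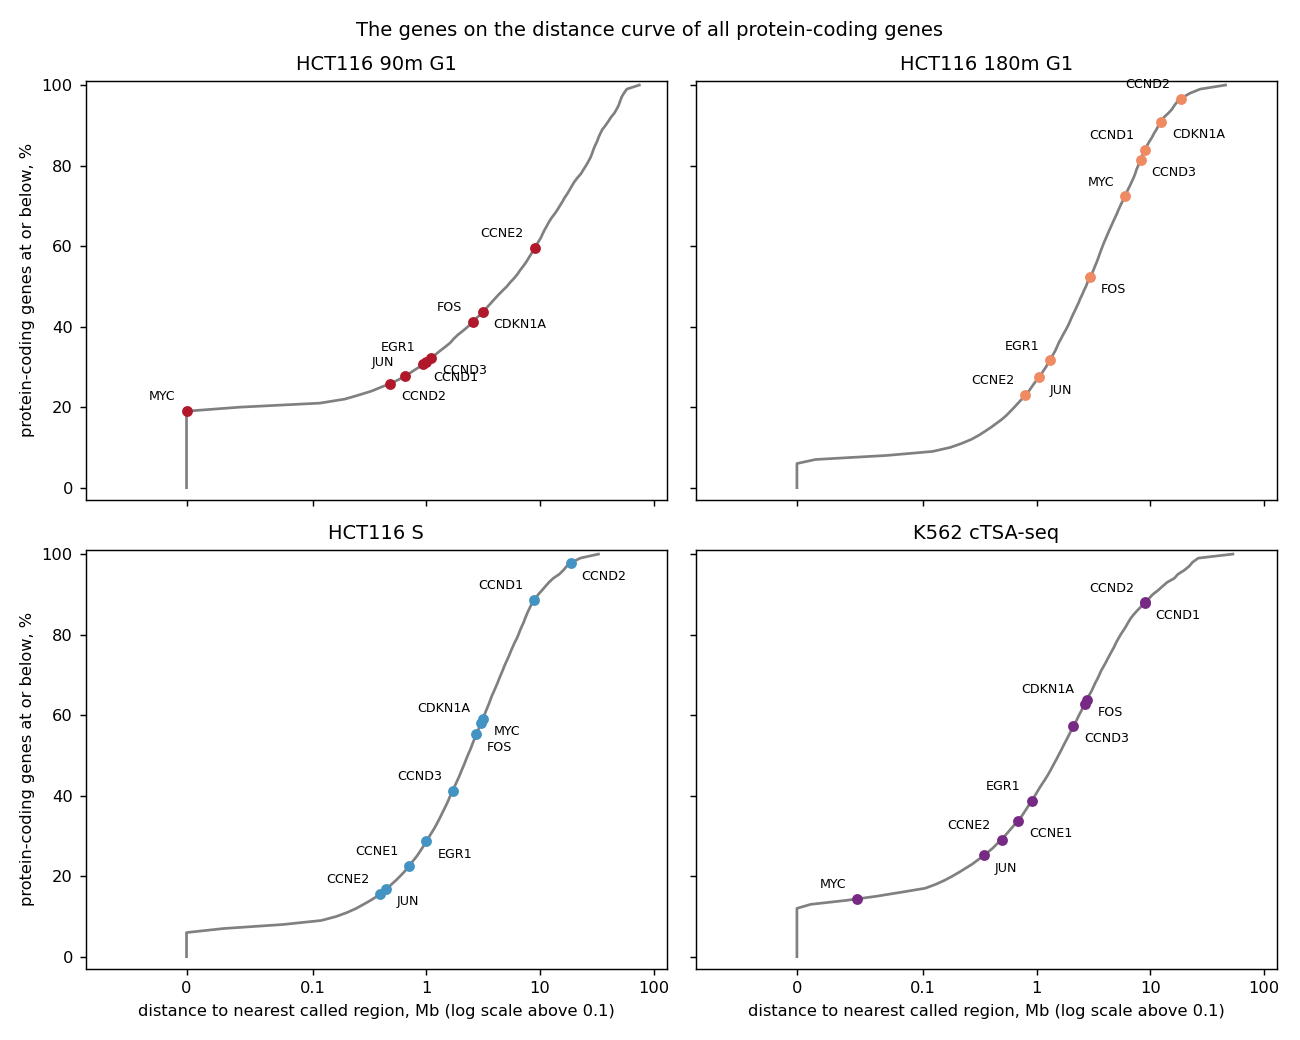
Grey curves give the percentage of all protein-coding genes (vertical axis) at or below a distance to the nearest called region (horizontal axis, Mb, log scale above 0.1 Mb) in 4 lists, and points mark the genes described here. In 90m G1 all but CCNE2 of the 9 plotted genes are left of the median of 5.11 Mb, and in 180m G1 the genes spread over the curve from CCNE2 at 0.791 Mb to CCND2 at 18.5 Mb.

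In K562 cells, none of the 10 genes was inside the cTSA-seq list, where 12.6% of protein-coding genes were, and 8 of 10 were inside the nonLAD list, where 56.2% were. The exceptions were CCND2 and JUN, which were in neither list, as were 31.2% of protein-coding genes. CCND2 was 78.9 kb from a nonLAD region of a single window. In all 8 cases the entire gene body was inside, in regions from 0.5 Mb (CCNE1 and MYC) to 7.1 Mb (CCND1, with 196 protein-coding genes). The median distance to a cTSA-seq region was 1.5 Mb against 1.55 Mb for all protein-coding genes. In the TSA-seq list of K562 cells none of the 10 genes was inside either, and their distances ran from 1.05 Mb for JUN to 11.0 Mb for CDKN1A. For MYC the nearest TSA-seq region was 3.04 Mb away, so the region that ended beside the gene was not in the TSA-seq list, which differs in method, antibody and laboratory.

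The genes lie in surroundings of very different gene density. The number of other protein-coding genes within 1 Mb was 1 for MYC, 4 for JUN, 7 for CCNE1, 13 for CCNE2, 18 for CCND1 and CCND2, 27 for FOS, 28 for EGR1, 32 for CDKN1A and 46 for CCND3, with a median of 18 against 23 over all protein-coding genes. Only 0.3% of protein-coding genes had fewer neighbours than MYC and 2.4% fewer than JUN. The GC content of the 100 kb windows that hold the gene ran from 42.1% for CCNE2 to 50.5% for CCND1, with a median of 46.3% against 44.3%. CCNE1 combined a GC content of 49.9%, higher than in 77.1% of genes, with a gene density lower than in all but 8.0%. The median gene length was 11.6 kb against 27.2 kb, and FOS and EGR1 were the shortest at 3.4 kb and 3.83 kb.

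**Figure D4:**
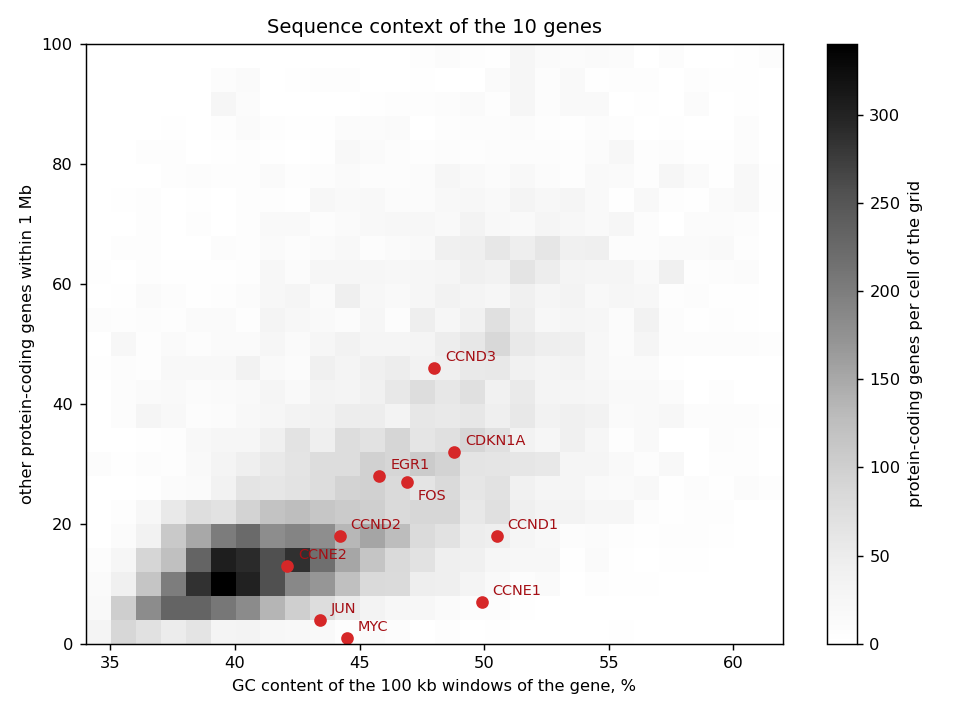
Each gene is placed by the GC content of its 100 kb windows (horizontal axis, %) and the number of other protein-coding genes within 1 Mb (vertical axis), over the grid of all protein-coding genes in grey, darker where more genes fall. MYC, JUN and CCNE1 lie at the bottom, with 1, 4 and 7 neighbours, and CCND3 is highest with 46.

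The paralog MYCN (chr2:16080672-16087129), which encodes the neuronal member of the MYC family, differed from MYC at most stages. MYCN was entirely inside a region in 90m G1, 180m G1, G1, S, G2 and bulk HCT116 cells, and in K562 cells it was 0.881 Mb from a region. Both genes were thus inside at 90m G1, and of the pair only MYCN was inside at the other 4 stages.

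Among 25 genes of the G1/S machinery, 3 were inside the 90m G1 list (12.0%), namely the CDK inhibitor CDKN1C, the E2F partner TFDP1 and the replication licensing factor CDT1. All of them lay 0.874 to 2.9 Mb from a chromosome end, and none was inside any later HCT116 list. In G1, S, G2 and bulk cells 1 gene, CCNA1, an A-type cyclin, was inside, and it was also inside the K562 list, while it was 57.4 Mb from a region at 90m G1. The only gene inside at 180m G1 was SKP2, a subunit of the ubiquitin ligase that degrades CDK inhibitors, at 0.552 Mb in G1 and S. Among 26 early growth response genes, 3 were inside at 90m G1 (11.5%), namely MYCN, the phosphatase gene DUSP1 and the antiproliferative gene BTG2, and MYCN alone was inside at each later stage and in bulk cells. In K562 cells EGR2 was the only gene of this list inside a cTSA-seq region. SKP2 and EGR2 were named after their values were seen. In the nonLAD list of K562 cells, 15 of 25 (60.0%) and 19 of 26 (73.1%) of these genes were inside. At each stage the shares of both lists were below the background given above, by a few genes at most.

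The gene on another chromosome with the most similar profile of distances over 8 lists was CRAT for CCND1 (root mean square difference 0.00934 on the log10 scale), NKAIN4 for CCND3 (0.0324), ATP6V0C for FOS (0.0202) and C4BPA for EGR1 (0.0468). It was FAM120AOS for CDKN1A (0.0933), KBTBD2 for JUN (0.118), ZNG1B for CCNE2 (0.163), GALNT18 for MYC (0.178) and the gene annotated as ENSG00000289764 for CCND2 (0.227). For CCNE1, over the 6 lists with a distance, it was CCDC113 (0.0809). CCND2 thus had the profile with the least similar match and CCND1 the one with the closest.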

How the data were processed

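Regions were taken from 12 of the deposited lists: 9 of HCT116 and 3 of K562 cells. The authors aligned reads to hg19 with Bowtie2 (2.3.2), counted them per window with bedtools (2.26.0), brought all libraries to equal totals, expressed StrePD over input as a log2 ratio and a z-score, and called an HMM on it. What they deposited are region starts and ends in bp, with no signal, ratio or count, so depth and precision are unknown. The 36 regions that stop off a window border stop at a chromosome end of hg19. According to the methods, the HMM calls of the replicates were then intersected; the 90m G1 and 180m G1 lists are not named as consensus lists, unlike those of the other HCT116 cells.

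Gene bodies came from GENCODE release 44 mapped to hg19 (protein-coding genes, chromosomes 1 to 22, X and Y). A gene was inside a list with at least 1 bp inside, distances were counted between edges, and surroundings reached 1 Mb on each side, not counting the region beyond a chromosome end. Regions on other sequences (1 each in the nonLAD list and the 50000-cell list) were left out. Likeness was the root mean square difference of log10(distance in bp + 100000). The genes named are the 10 members, genes of the pathway lists inside the 90m G1 or bulk list, the most similar gene of each member, and genes in or beside a region whose position is given. Members and lists were chosen with earlier results of these data known. The code for overlaps and distances was tested on simulated intervals and recovered 100% of 1000. Python 3.11.15, numpy 2.4.6 and matplotlib 3.10.9 were used. No tests were made. Alternatives were other overlap rules, region sizes, joined gaps, surroundings, lists and gene sets. SLAM-seq, RPE1 and mouse data were not analysed here.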

Additional observations from a re-analysis of the deposited data

How the results depend on the processing

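A count counted as unchanged within 1.5 times, and a median if it moved by no more than 1 SD over the 4 asynchronous HCT116 lists (0.743 Mb for distances, 0% for surroundings). Of 52 alternative counts of genes inside a list, 51 were unchanged. Stricter overlap rules could not change the counts, since each gene was wholly inside a list or had no base inside. With 100 kb on each side of the body, 1 gene (MYC) touched the K562 cTSA-seq list. Of 28 alternative median distances, 26 were unchanged. The median was 3.6 Mb with the 200000-cell list in place of bulk, and 4.27 Mb with TSA-seq in place of K562 cTSA-seq. The lists used in place of bulk are among those that gave the SD, so that comparison is not independent of it. Surroundings within 2 Mb on each side gave medians of 15.0% (90m G1), 2.43% (G1 and G2), 3.61% (S), 9.69% (bulk), 9.96% (K562 cTSA-seq) and 38.7% (nonLAD), and within 500 kb of 0.0% (K562 cTSA-seq) and 85.0% (nonLAD), against 0.0% within 1 Mb in HCT116 lists, 2.47% and 55.7%. With genes of all types the background was 11.05% (180m G1), 12.04% (G1), 12.61% (S), 10.94% (G2), 19.39% (bulk) and 22.04% (K562 cTSA-seq). The causes were not tested. No paired analysis was possible because no list holds separate replicates, and for the same reason no replicate could be left out. Depth is unknown.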
